A study of Mus musculus with 43 samples.

Results

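Interferon-stimulated genes are the genes that a cell switches on when interferon, a cytokine released on viral infection or nucleic acid sensing, binds its receptor. Many of them carry a short DNA element, the interferon-stimulated response element, in front of the gene. In the gut epithelium and its stroma a low level of these transcripts is present without infection, and their proteins act mainly against viruses. The 9 genes described here were chosen by name, with earlier results of these data known. Counts of them that passed a threshold, set beside the share of all genes, are therefore a description. The 9 genes were looked up in the 2 expression tables of the study, each of which lists 52636 genes. Slfn2 is a Schlafen family gene best known for keeping T cells quiescent, and Irf7 is the transcription factor that amplifies type I interferon production. Usp18 is the protease that strips ISG15 from proteins and dampens receptor signalling, and Isg15 is a ubiquitin-like modifier. Ifit1 binds foreign RNA, Ifit3 belongs to the same family, and Oasl2 is an oligoadenylate synthetase-like gene. Rsad2 encodes the antiviral enzyme viperin, and Bst2 encodes tetherin, a membrane protein that holds budding virions.

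The study asked how mouse colon epithelium and colon fibroblasts respond to regorafenib, a multi-kinase inhibitor used in colorectal cancer. The organoid table held 24 RNA-seq libraries of 6 lines, each grown from 1 mouse aged 2 months that carried Vil1-cre/ERT2, a tamoxifen-dependent Cre driven in intestinal epithelium, and had received tamoxifen for 3 days. Lines M41, M40 and M1 (males) had wild-type Apc and are called colonoids, and lines F11 (a female), M3 and M14 (males) had lost the floxed Apc alleles and are called tumoroids. Each line was grown in Matrigel and sampled after 6 days in vehicle (Ve, 0.5% DMSO), in regorafenib at 4 µM (R4) or 8 µM (R8), or in 5-fluorouracil at 1 µM (5-FU). The fibroblast table held 19 libraries of 4 primary lines from the colon of wild-type C57BL/6 mice, M3, M3 (2), M1 (2) and M11, after 7 days in Ve, R4, 10 µM regorafenib (R10), 1 µM autogramin-2 (A1, an autophagy inhibitor that targets GRAMD1A) or R4 with A1 (R4A1), and line M11 had no R10 library. A group was therefore 3 or 4 lines with 1 library each, so p-values measure the spread between lines, or what remains of it within lines where the line was a term of the fit (the block), and all treatments of a table were compared with the same Ve libraries.

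Values are CP20M, read counts scaled by the authors to 20000000 reads per library (200 CP20M is 10 CPM). The libraries held 512599 to 22368162 counted reads in organoids (median 15697935) and 7949950 to 12825873 in fibroblasts. The colonoid M41 R4 library, at 512599 reads, stood apart from the next shallowest at 4371822 reads, and 1 read there was worth 39.0 CP20M. All 7 epithelial markers were tested in organoids, where their summed level was 106341 to 349165 CP20M, and the 7 fibroblast markers summed to 12 to 123 CP20M. In fibroblast libraries the same 7 fibroblast markers summed to 110872 to 185810 CP20M, lymphocyte markers summed to 0 to 8 CP20M, and markers of macrophages and of endothelium were present at levels given below. A second organoid library stood apart for the genes described here, the Ve library of colonoid line M1, which was the highest of all 24 for Slfn2, Irf7, Oasl2, Ifit1, Isg15 and Rsad2.

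In the GRCm38 build the 9 genes lie on 8 chromosomes, and Ifit1 (chr19, 34640871 to 34650009, plus strand) and Ifit3 (chr19, 34583531 to 34588731, plus strand) are neighbours. Slfn2 (ENSMUSG00000072620) lies at chr11, 83065112 to 83070678, on the plus strand, Irf7 at chr7, 141262706 to 141266481, on the minus strand, and Usp18 at chr6, 121245906 to 121270917, on the plus strand. Isg15 lies at chr4, 156199424 to 156200818 (minus strand), Bst2 at chr8, 71534255 to 71537456 (minus strand), Oasl2 at chr5, 114896936 to 114912234 (plus strand), and Rsad2 at chr12, 26442746 to 26456452 (minus strand). Exons of Irf7 share 45 bases with Phrf1 on the opposite strand and exons of Usp18 share 124 bases with the lincRNA Gm44148. The strand setting of the read counting is not given in the sources used here, so reads from these shared stretches could not be assigned. Ifit3 has a near-identical neighbour, Ifit3b, and its level is uncertain where reads fit both.

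RefSeq (GRCm38.p6) promoters were found for 8 of the 9 genes, all but Usp18. The 250 bases before the start were searched on both strands for GAAANNGAAA and its reverse complement TTTCNNTTTC, the core of the interferon-stimulated response element, and overlapping matches were counted separately. The element was found in 5 of 8 promoters, against 8 of 30 promoters of other interferon-stimulated genes (26.7%) and 978 of 32851 promoters of all genes (2.98%). Isg15 held 3 overlapping matches, the nearest 66 bases before the start, and Bst2 held 2. Ifit1 held 2 matches at 104 and 85 bases and Ifit3 held 2 at 156 and 122 bases before the start, all read on the opposite strand, and Rsad2 held 1. No match lay in these windows of Slfn2, Irf7 and Oasl2. Bst2 and Isg15 were picked since Bst2 was higher and Isg15 lower in organoids under regorafenib. Ifit1 was called lower under R10 in fibroblasts with the block but not without it, and its neighbour Ifit3 in neither fit. The 2 neighbours were picked for this, though no test compared them. Below are these 4 promoters with matches, and those of Irf7 and Slfn2, which hold no match in this window. They are printed 5′ to 3′ on the strand of the gene, matches in capitals, as 250 bases before the start, or as 100-base windows for Ifit1 (150 to 51 bases before the start) and Ifit3 (200 to 101 bases before it).
Isg15 (chr4:156200819-156201068, minus strand): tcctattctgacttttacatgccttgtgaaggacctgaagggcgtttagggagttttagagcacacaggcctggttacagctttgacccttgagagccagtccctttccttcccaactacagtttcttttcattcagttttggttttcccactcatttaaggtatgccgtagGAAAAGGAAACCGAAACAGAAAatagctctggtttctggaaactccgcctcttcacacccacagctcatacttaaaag
Bst2 (chr8:71537473-71537722, minus strand): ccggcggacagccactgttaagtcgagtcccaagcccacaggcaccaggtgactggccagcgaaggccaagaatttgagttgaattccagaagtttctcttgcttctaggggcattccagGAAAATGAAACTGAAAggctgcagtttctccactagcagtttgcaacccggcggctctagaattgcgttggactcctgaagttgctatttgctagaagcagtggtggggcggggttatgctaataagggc
Ifit1 (chr19:34640739-34640838, plus strand): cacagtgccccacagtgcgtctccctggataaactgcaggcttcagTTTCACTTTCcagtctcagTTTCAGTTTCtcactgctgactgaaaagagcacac
Ifit3 (chr19:34583329-34583428, plus strand): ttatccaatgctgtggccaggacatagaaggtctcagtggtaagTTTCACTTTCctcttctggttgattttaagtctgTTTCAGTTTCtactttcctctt
Irf7 (chr7:141266425-141266674, minus strand): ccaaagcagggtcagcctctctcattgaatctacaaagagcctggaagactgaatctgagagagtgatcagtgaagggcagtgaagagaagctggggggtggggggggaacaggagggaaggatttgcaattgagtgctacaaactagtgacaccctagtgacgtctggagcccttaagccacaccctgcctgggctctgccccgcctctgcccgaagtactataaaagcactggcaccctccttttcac
Slfn2 (chr11:83064862-83065111, plus strand): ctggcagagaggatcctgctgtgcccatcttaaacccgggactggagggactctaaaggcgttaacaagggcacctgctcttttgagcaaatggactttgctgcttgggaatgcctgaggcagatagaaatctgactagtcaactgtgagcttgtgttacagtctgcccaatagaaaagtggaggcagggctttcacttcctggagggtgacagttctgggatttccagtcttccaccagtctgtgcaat

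Slfn2 had the largest ratio between the highest and lowest group means of the 9 genes in fibroblasts. In Ve it was at 495 CP20M in line M3, 340 in M3 (2), 287 in M1 (2) and 351 in M11. Under R10 it was at 63 CP20M in M3, 31 in M3 (2) and 49 in M1 (2), and under R4A1 at 88, 94, 78 and 146 CP20M in M3, M3 (2), M1 (2) and M11. No R10 or R4A1 library reached the lowest Ve library. R4 alone gave 218 to 324 CP20M and A1 alone 229 to 344 CP20M, and both ranges overlapped the Ve range.

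The group means of Slfn2 were ordered from Ve (368 ± 89.0 CP20M, SD, n = 4) through A1 (292 ± 47.4, n = 4), R4 (252 ± 49.5, n = 4) and R4A1 (102 ± 30.4, n = 4) to R10 (47.7 ± 16, n = 3). The ranges of Ve and A1 overlapped, as did those of A1 and R4, while R4 and R4A1 did not overlap and neither did R4A1 and R10. On the log2(CP20M + 20) scale the difference from Ve was -2.52 ± 0.22 (SE) in R10, a 5.75-fold lower level, -1.68 ± 0.21 in R4A1, -0.50 ± 0.21 in R4 and -0.30 ± 0.21 in A1. Between R4A1 and R4 it was -1.18 ± 0.21, and between R10 and R4 it was -2.02 ± 0.22. Within lines the R10 difference ran from -2.82 to -2.15 in 3 of 3 lines and the R4A1 difference from -2.25 to -1.16 in 4 of 4. The study itself singled out Slfn2 on these fibroblast libraries, so these values are a description and no p-value is given for them.

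**Figure D1:**
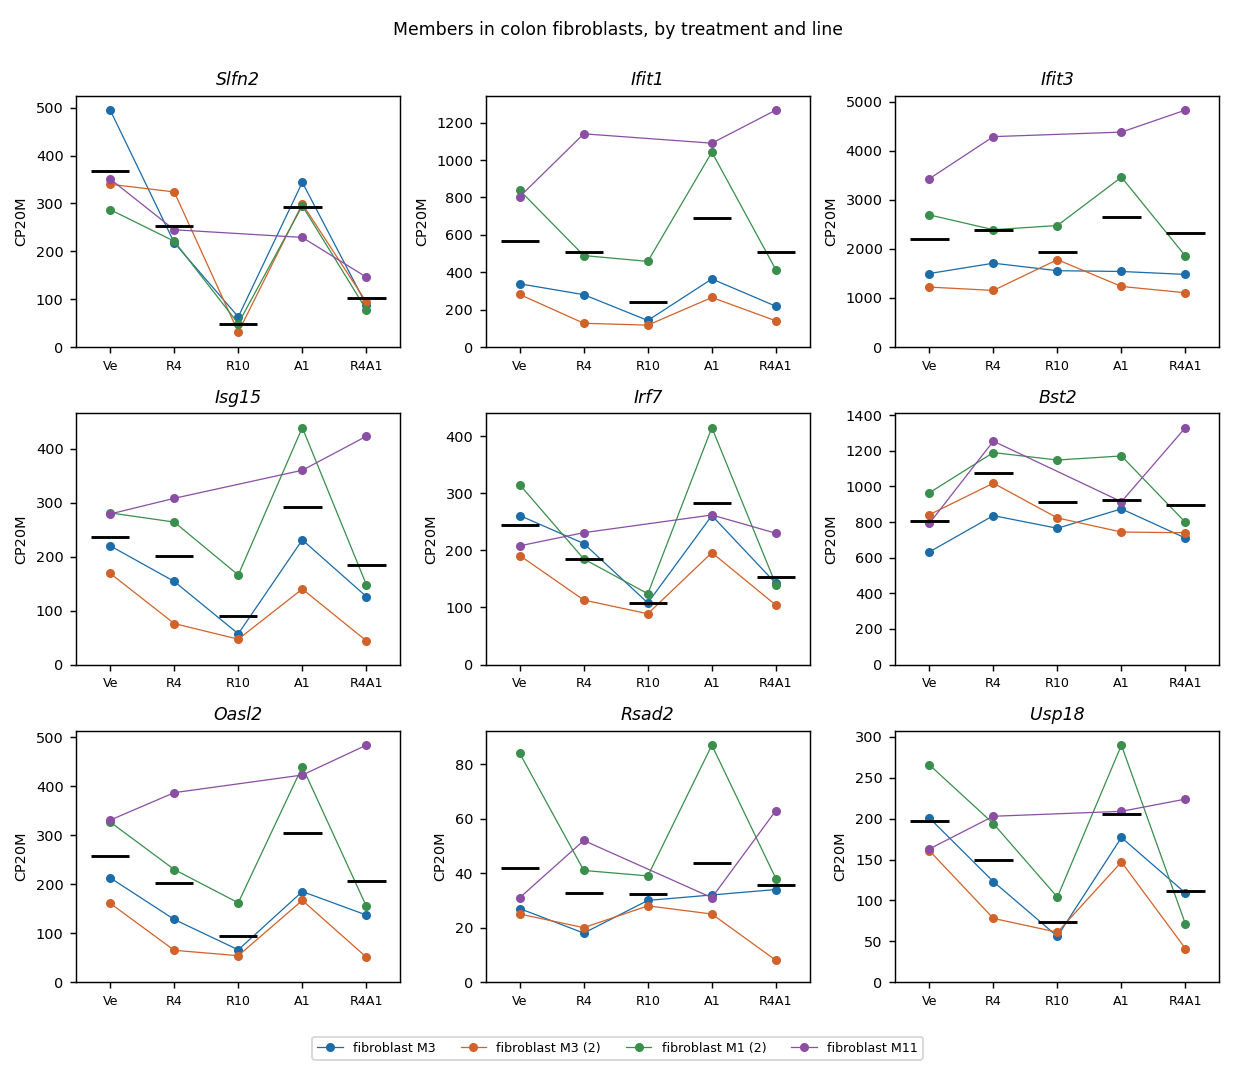
Levels of the 9 genes in the 19 fibroblast libraries, in CP20M on a linear axis from 0, by treatment (Ve, R4, R10, A1, R4A1). Points joined by thin lines are libraries of 1 line and black bars are group means. Slfn2 was at 31 to 63 CP20M under R10 against 287 to 495 in Ve, while Ifit3 and Bst2 kept overlapping ranges.

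Irf7 and Usp18 fell under R10. Irf7 was at 261, 191, 315 and 208 CP20M in the Ve libraries of M3, M3 (2), M1 (2) and M11, and at 108, 89 and 124 CP20M in the R10 libraries of M3, M3 (2) and M1 (2). The groups did not overlap, and the difference was -1.04 ± 0.27 (2.06-fold lower, limma adjusted p = 0.0177, n = 4 and 3). Usp18 was at 201, 161, 266 and 163 CP20M in Ve and at 56, 61 and 104 CP20M in R10, again without overlap, a difference of -1.23 ± 0.40 (adjusted p = 0.0486). Of the 7 members tested other than Slfn2, Irf7 and Usp18 were the 2 that passed an adjusted p of 0.05 with at least a 1.5-fold difference, against 7.33% of the 11032 genes tested. No R10 library reached 200 CP20M for either gene, so both passed the expression filter through the other groups. Leaving out line M3 or line M1 (2) ended the call of Irf7 (-1.01 with adjusted p = 0.18, and -1.01 with adjusted p = 0.108), and leaving out M3, M3 (2) or M1 (2) ended that of Usp18 (adjusted p = 0.338, 0.123 and 0.163). Usp18 also missed the threshold with a filter of 20 CP20M (adjusted p = 0.0512), with edgeR (0.0689) and with median-of-ratios scaling (0.0549). Phrf1, which overlaps Irf7, was at 1688 to 1805 CP20M in Ve and 1512 to 1631 in R10, and Gm44148, which overlaps Usp18, was at 36 to 68 and 14 to 26 CP20M.

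Isg15, Oasl2 and Ifit1 were lower under R10 in each of the 3 lines, but the lines differed widely in level. Isg15 was at 220, 169 and 281 CP20M in the Ve libraries of M3, M3 (2) and M1 (2), and at 57, 47 and 166 CP20M in their R10 libraries, with line M11 at 279 in Ve. Oasl2 went from 213 to 66 CP20M in M3, from 161 to 54 in M3 (2) and from 327 to 162 in M1 (2), and was at 331 in M11. Ifit1 went from 338 to 142, from 281 to 117 and from 838 to 458 CP20M in the same lines, and was at 804 in M11. R10 and Ve ranges overlapped for Oasl2 and Ifit1, and those of Isg15 were separated by 166 against 169 CP20M. Without a term for the line none of these genes passed (Isg15 -1.36 ± 0.57, adjusted p = 0.129, Oasl2 -1.35 ± 0.60, adjusted p = 0.157, Ifit1 -1.26 ± 0.78, adjusted p = 0.322).

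When the line entered the fit as a block, 5 of the 7 members other than Slfn2 were called lower under R10, against 13.8% of genes called in either direction. Line M11, in which these 5 genes were higher than in Ve under R4 and R4A1, had no R10 library. The 5 genes were correlated across libraries, as given below, so these are not 5 separate results. Isg15 differed by -1.12 ± 0.27 (2.18-fold lower, adjusted p = 0.00325), Oasl2 by -1.05 ± 0.26 (2.07-fold, adjusted p = 0.00337) and Ifit1 by -0.86 ± 0.24 (1.81-fold, adjusted p = 0.00846). In the same fit Irf7 differed by -0.99 ± 0.19 (adjusted p = 0.000519) and Usp18 by -1.11 ± 0.29 (adjusted p = 0.0051). No R10 library reached 200 CP20M for Slfn2, Irf7, Usp18, Isg15 or Oasl2, so these genes passed the expression filter of 200 CP20M through the other groups. With a filter of 20 CP20M and the block, 5 of 8 members other than Slfn2 were called, Rsad2 not being among them (-0.09, adjusted p = 0.835), against 14.2% of genes.

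Bst2, Ifit3 and Rsad2 did not pass under R10. Bst2 was at 632, 841, 964 and 792 CP20M in Ve and at 765, 823 and 1148 CP20M in R10 (0.17 ± 0.22, adjusted p = 0.692). Ifit3 was at 1497, 1221, 2692 and 3428 CP20M in Ve and at 1555, 1780 and 2475 in R10 (-0.09 ± 0.55, adjusted p = 0.935), while its near-identical neighbour Ifit3b was at 292 to 1219 CP20M in Ve and 199 to 512 in R10. Rsad2 was low throughout, at 25 to 84 CP20M in Ve and 28 to 39 in R10, and was below the main filter.

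At the lower dose of regorafenib the levels of most members overlapped those in Ve. Under R4, limma called 0 of the 7 tested members other than Slfn2, against 1.02% of genes (0 against 7.22% with the block), 0 had an unadjusted p under 0.05 (3 with the block), and edgeR called 0. Bst2 was at 836, 1018, 1190 and 1254 CP20M in M3, M3 (2), M1 (2) and M11, higher than Ve in 4 of 4 lines (0.40 ± 0.20, adjusted p = 0.402). With the block its adjusted p was 0.0377, but the difference stayed under 1.5-fold. Under A1, 0 of 7 were called, as were 0% of genes in both fits, 0 had an unadjusted p under 0.05 and edgeR called 0.

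Under R4A1, limma called 0 of the 7 members other than Slfn2, against 1.66% of genes, with 2 at an unadjusted p under 0.05 and 0 by edgeR, and with the block it called 2 of 7, against 6.99%. These were Irf7 (-0.62 ± 0.17, adjusted p = 0.0129 with the block and 0.211 without) and Usp18 (-0.90 ± 0.26, adjusted p = 0.0179 with the block and 0.216 without). Leaving out line M11 brought Usp18 to -1.33 with an adjusted p of 0.045 without the block. Between R4A1 and R4, limma called 0 of the 7 against 0.00906% of genes, with 0 at an unadjusted p under 0.05 and 0 by edgeR, and 0 with the block, against 1.43%, with 1 at an unadjusted p under 0.05. Between R10 and R4 it called 0 of 7, against 0.145% of genes, with 1 at an unadjusted p under 0.05 and 0 by edgeR, and with the block it called Irf7 (-0.61 ± 0.19, adjusted p = 0.0339), against 6.02%.

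Line M11, which had no R10 library, went the other way for Ifit1, Isg15, Oasl2, Usp18 and Irf7. From Ve to R4 to R4A1 it read 804, 1140 and 1267 CP20M for Ifit1, 279, 308 and 423 for Isg15, 331, 387 and 484 for Oasl2, and 163, 203 and 224 for Usp18. The other 3 lines were lower than their own Ve library under both treatments for each of these genes. Slfn2 in line M11 went with the other lines, at 351 CP20M in Ve, 245 with R4 and 146 with R4A1. Each line had 1 library per treatment, so this difference between lines was not tested.

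**Figure D2:**
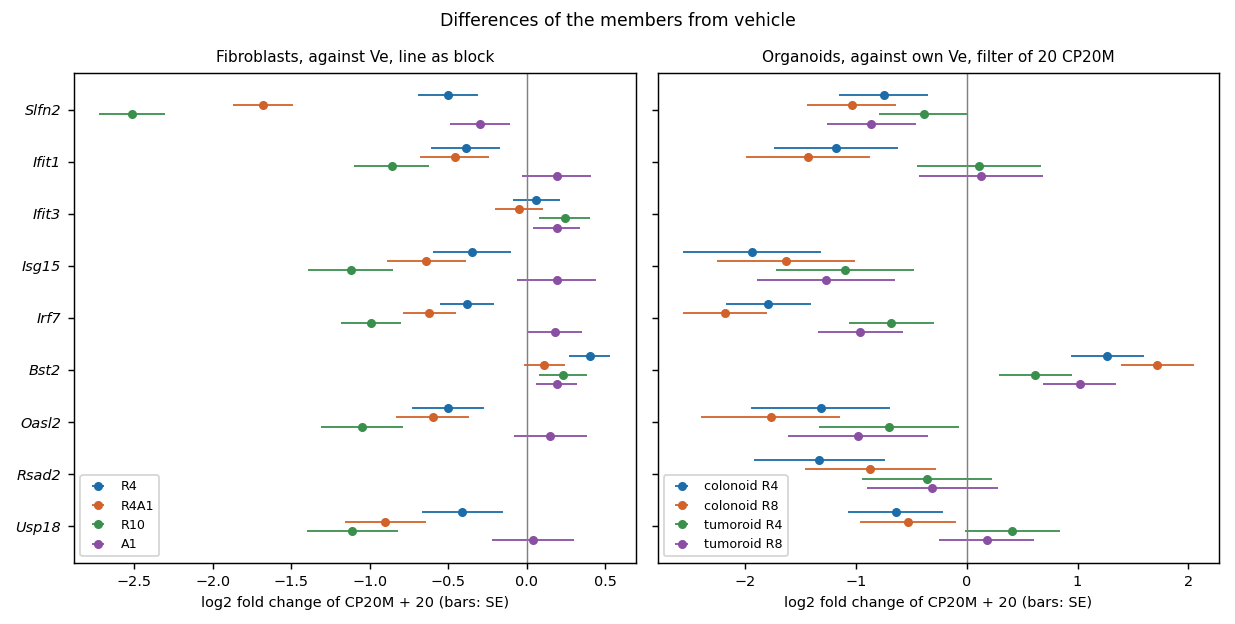
Differences from Ve on the log2(CP20M + 20) scale, with the standard error of the fit as bars, in fibroblasts (left, line as a block) and in organoids (right, filter of 20 CP20M, each genotype against its own Ve). In fibroblasts Slfn2 lies furthest to the left under R10 (-2.51), and in organoids Bst2 lies to the right of 0 in all 4 comparisons (0.62 to 1.72) while Irf7 lies to the left.

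Macrophage transcripts were also lower in the R10 and R4A1 fibroblast libraries. The summed level of 11 macrophage markers was 1215 to 6521 CP20M in Ve, 909 to 4234 in A1, 778 to 2256 in R4, 621 to 660 in R10 and 514 to 746 in R4A1. The highest Ve value was that of line M11, which had no R10 library. In Ve, lines M3, M3 (2) and M1 (2) were at 2675, 1215 and 1941 CP20M. The Ve ranges of single markers that follow include line M11 as well. C1qa, a complement gene of tissue macrophages, was at 0 in all R10 libraries and at 4 to 242 CP20M in Ve, Adgre1 (the F4/80 antigen) was at 0 to 7 against 21 to 152 CP20M, and Lyz2 was at 217 to 268 against 674 to 4214 CP20M. Of the 3 markers that could be tested, 1 was called lower under R10 (Lyz2, -2.60, adjusted p = 0.00806) and 2 with the block (Lyz2 and C1qb). Bulk libraries cannot tell fewer cells of a type from less RNA per cell, and the part of macrophages in the fall of Slfn2 and the other genes was not tested. Across the 19 libraries, which share lines and treatments, the Pearson correlation of the log2 levels with the summed macrophage markers was 0.70 for Slfn2, 0.71 for Irf7, 0.69 for Usp18, 0.67 for Oasl2, 0.66 for Isg15, 0.61 for Ifit1, 0.50 for Ifit3, 0.25 for Rsad2 and 0.01 for Bst2. Line M11 under R4A1 had 746 CP20M of macrophage markers against 6521 in Ve. In that 1 library Ifit1, Isg15, Oasl2 and Usp18 were higher than in Ve and Slfn2 was lower. In lines M3, M3 (2) and M1 (2) under R4A1 the marker sum, Slfn2 and these genes were all lower than in Ve.

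**Figure D3:**
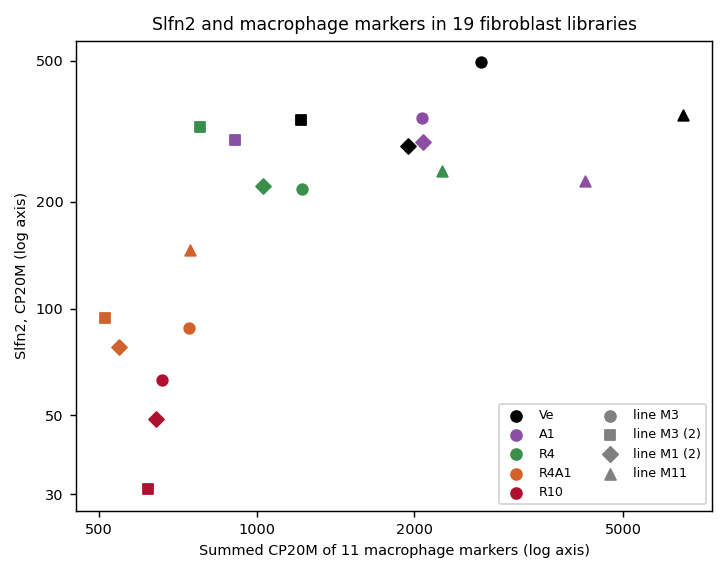
Slfn2 against the summed level of 11 macrophage markers in the 19 fibroblast libraries, both in CP20M on log axes, with treatments in colours and lines as symbols. The R10 and R4A1 libraries lie at the lower left, with marker sums of 514 to 746 CP20M. The R4 libraries had marker sums of 778 to 2256 CP20M, with Slfn2 at 218 to 324 CP20M.

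Sums of the other marker lists overlapped between Ve and R10 in fibroblasts. The 7 fibroblast markers summed to 128516 to 185810 CP20M in Ve, 117708 to 185809 in R4, 129241 to 136775 in R10, 121054 to 167161 in A1 and 110872 to 146415 in R4A1. Of these 7, 2 were called lower under R10 and 0 higher, Pdgfra, a receptor kinase (-3.03, adjusted p = 0.0055), and Col3a1, a collagen (-1.43, adjusted p = 0.015). With the block 3 were called lower and 1 higher. The 4 endothelial markers summed to 877 to 7281 CP20M in Ve, 1345 to 20692 in R4, 1509 to 12722 in R4A1 and 1201 to 4750 in R10. Their part in the changes of the 9 genes was not tested.

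In organoids regorafenib moved Irf7 and Bst2 in opposite directions. Irf7 was at 289, 199 and 551 CP20M in the Ve libraries of colonoid lines M41, M40 and M1, at 79, 86 and 69 CP20M under R4 and at 75, 56 and 37 under R8. In tumoroid lines F11, M3 and M14 it was at 144, 178 and 159 CP20M in Ve, 64, 177 and 65 under R4 and 80, 91 and 51 under R8. Every colonoid and 5 of 6 tumoroid regorafenib libraries lay below all 6 Ve libraries, the exception being tumoroid M3 under R4. Bst2 was at 255, 149 and 269 CP20M in colonoid Ve, 976, 444 and 389 under R4 and 857, 756 and 691 under R8. In tumoroids it was at 199, 434 and 309 CP20M in Ve, 416, 499 and 505 under R4 and 488, 653 and 783 under R8, and it was higher than in Ve in each line at each dose.

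Over both genotypes and doses Irf7 fell by 1.40 ± 0.24 on the log2 scale (limma adjusted p = 0.000298) and Bst2 rose by 1.16 ± 0.20 (adjusted p = 0.000288). These were the only 2 members above the main filter and both were called, against 16.9% of the 11562 genes tested. Irf7 passed that filter only through the Ve libraries of colonoids M41 and M1 and the 5-FU library of tumoroid M3. In colonoids alone both were called at R4 (Irf7 -1.79 ± 0.40, adjusted p = 0.00931, and Bst2 1.27 ± 0.33, adjusted p = 0.0204, against 10.2% of genes) and at R8 (Irf7 -2.18 ± 0.40, adjusted p = 0.00105, Bst2 1.72 ± 0.33, adjusted p = 0.00142, against 15.3%). At R4 the median difference of all genes was -0.23, and it was 0 under the edgeR scaling, where Irf7 and Bst2 were both still called. The R4 calls of colonoids rested on single libraries. Bst2 was at 0.87 (adjusted p = 0.072) without the shallow M41 library and Irf7 at -1.41 (adjusted p = 0.0586) without the M1 Ve library, and leaving out line M41 ended both calls (Bst2 0.98, adjusted p = 0.12, Irf7 -1.86, adjusted p = 0.0533), line M40 that of Bst2 (adjusted p = 0.0703) and line M1 that of Irf7 (adjusted p = 0.0809).

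In tumoroids limma called neither gene at R4 (0 of 2, against 3.70% of genes, 0 at an unadjusted p under 0.05, 0 by edgeR) or at R8 (0 of 2, against 6.23%, 2 at an unadjusted p under 0.05, 0 by edgeR). Irf7 was at -0.68 (adjusted p = 0.384) and -0.96 (adjusted p = 0.173), and Bst2 at 0.62 (adjusted p = 0.325) and 1.02 ± 0.33 (adjusted p = 0.0683). In the fit with a term for the line Bst2 at R8 was called (adjusted p = 0.0117, against 11.5% of genes), and so it was without the shallow colonoid library (adjusted p = 0.0167). The difference between genotypes in the regorafenib response was 1.17 ± 0.49 for Irf7 (unadjusted p = 0.0277 by limma, adjusted p = 0.997) and -0.68 for Bst2 (adjusted p = 0.997). Thus 0 of 2 members passed that test, as did 0% of genes, with 1 member at an unadjusted p under 0.05 and 0 by edgeR.

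**Figure D4:**
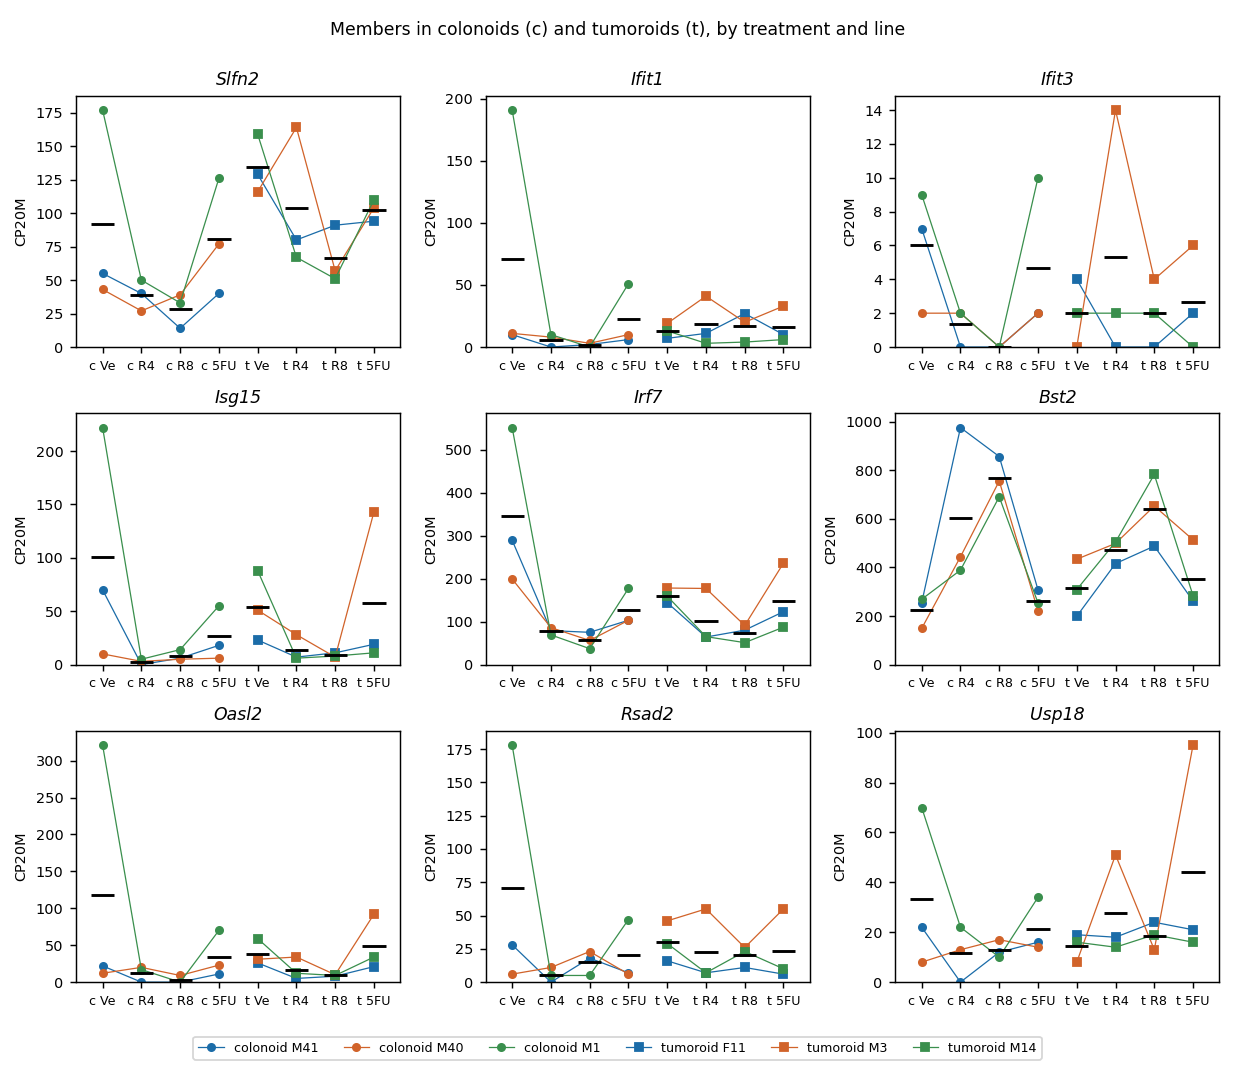
Levels of the 9 genes in the 24 organoid libraries, in CP20M on a linear axis from 0, for colonoids (c, circles) and tumoroids (t, squares) under Ve, R4, R8 and 5-FU, with lines joining libraries of 1 line and black bars for group means. The colonoid M1 Ve library is the highest point for Slfn2, Ifit1, Isg15, Irf7, Oasl2 and Rsad2, and Bst2 rises from Ve to R8 in all 6 lines.

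The other members lay below 200 CP20M in nearly all organoid libraries and were tested with a filter of 20 CP20M, which all but Ifit3 (0 to 14 CP20M) passed. Of the 12 regorafenib libraries, Isg15 reached 20 CP20M in 1, Oasl2 in 2, Ifit1 and Usp18 in 3, Rsad2 in 4 and Slfn2 in 11. Isg15 therefore passed even this filter through the Ve and 5-FU libraries. The count of called members is a description, and so are the adjusted p-values of Isg15 with this filter. In that fit 5 of 8 members were called over both genotypes, against 14.8% of 17153 genes. Besides Irf7 and Bst2 these were Isg15 (-1.48 ± 0.38, adjusted p = 0.0072), Oasl2 (-1.19 ± 0.38, adjusted p = 0.0295) and Slfn2 (-0.76 ± 0.24, adjusted p = 0.0275). Ifit1 (-0.59, adjusted p = 0.224), Rsad2 (-0.72, adjusted p = 0.155) and Usp18 (-0.15, adjusted p = 0.726) did not pass. Without the M1 Ve library Slfn2 (-0.51, adjusted p = 0.116) and Oasl2 (-0.65, adjusted p = 0.10) were not called. Isg15 was then at -1.12 (adjusted p = 0.0318), again with most of its regorafenib values below the filter. In the same leave-out with the line as a block, Slfn2 (-0.60, adjusted p = 0.0497) and Oasl2 (-0.73, adjusted p = 0.0351) were called.

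Isg15 was at 70, 10 and 222 CP20M in colonoid Ve (M41, M40, M1) and at 0 to 14 CP20M in the 6 colonoid regorafenib libraries, 0 being the shallow one. In tumoroid Ve it was at 23, 51 and 88 CP20M (F11, M3, M14), and of the 6 tumoroid regorafenib libraries only M3 under R4 exceeded 20 CP20M, at 28. Oasl2 was at 22, 12 and 321 CP20M in colonoid Ve and at 0 to 20 under regorafenib, and at 26, 31 and 59 CP20M in tumoroid Ve and 5 to 34 under regorafenib. In colonoids at R8, Irf7 and Bst2 were called with this filter, and 6 of 8 members were once the line was a block in the fit, against 17.7% of genes, the additional ones being Slfn2 (-1.04, adjusted p = 0.0373), Ifit1 (-1.43, adjusted p = 0.0303), Isg15 (-1.63, adjusted p = 0.0315) and Oasl2 (-1.77, adjusted p = 0.0251). These 4 calls rested on the M1 Ve library. Without it, in the same fit with the block, Irf7 and Bst2 were the 2 members called, against 13.8% of genes, and the values were -0.71 for Slfn2 (adjusted p = 0.213), -0.66 for Ifit1 (0.228), -1.10 for Isg15 (0.194) and -0.85 for Oasl2 (0.189).

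Slfn2 in organoids was at 55, 43 and 177 CP20M in colonoid Ve, 40, 27 and 50 under R4 and 14, 39 and 33 under R8. In tumoroids it was at 129, 116 and 159 CP20M in Ve, 80, 164 and 67 under R4 and 91, 57 and 51 under R8. The order of its group means ran from tumoroid Ve (135 ± 22.1, SD, n = 3) through tumoroid R4 (104 ± 52.7), tumoroid 5-FU (103 ± 8.08), colonoid Ve (91.7 ± 74.1), colonoid 5-FU (81.0 ± 43.1), tumoroid R8 (66.3 ± 21.6) and colonoid R4 (39.0 ± 11.5) to colonoid R8 (28.7, from 14 to 39). Neighbours in that order overlapped in range, apart from tumoroid R8 (51 to 91) and colonoid R4 (27 to 50). Of the macrophage markers, Lyz2, C1qa and Adgre1 were at 0 to 4 CP20M in every organoid library but the shallow one, where 1 read of Adgre1 was worth 40 CP20M after rounding up. The summed list of 11 was nevertheless 796 to 3666 CP20M, mostly Cd14, Csf1r and Cd68. In the colonoid M1 Ve library it was 1235 CP20M, the lowest of the 3 colonoid Ve libraries. The relation of these markers to the members in organoids was not tested.

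The genotype comparison and 5-FU gave no call among the 2 members above the main filter. Between tumoroid and colonoid Ve, limma called 0 of 2 against 2.06% of genes, with 1 at an unadjusted p under 0.05 and 0 by edgeR. Irf7 was at -0.91 ± 0.40 (adjusted p = 0.253) and Bst2 at 0.43 (adjusted p = 0.57). Under 5-FU, 0 of 2 were called in colonoids (against 0.0432% of genes, 1 at an unadjusted p under 0.05), in tumoroids (against 0.182%, 0 at that p) and over both (against 2.35%, 1 at that p), and 0 differed between genotypes (against 0%, 0 at that p), with 0 by edgeR in each. Irf7 in colonoids was at 103, 103 and 177 CP20M under 5-FU, below Ve in 3 of 3 lines (-1.23, adjusted p = 0.419). Tumoroid line M3 under 5-FU was the highest of the 12 tumoroid libraries for Isg15 (143 CP20M), Usp18 (95), Oasl2 (92) and Irf7 (236), while lines F11 and M14 were at 19 and 11 CP20M for Isg15.

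Per kilobase of exon, the order of the genes differed between cell types. The study's legends describe CP20M as already divided by transcript length, but the value of 1 read was the same for all genes of a library. The deposited values therefore carry no length scaling and were divided by exon length here. The exon length used for Irf7 (3776 bases) covers the whole gene from 141262706 to 141266481, introns included. Its level per kb may therefore be too low, and its place in the orders below is uncertain. In fibroblast Ve the levels were 1270 ± 592 CP20M per kb for Ifit3 (SD, n = 4), 894 ± 152 for Bst2, 314 ± 70.9 for Isg15, 221 ± 53.5 for Slfn2, 213 ± 112 for Ifit1, 70.9 ± 17.6 for Usp18, 64.6 ± 14.9 for Irf7, 40.5 ± 13.3 for Oasl2 and 9.63 ± 6.52 for Rsad2. Ifit3 and Bst2, Slfn2 and Ifit1, and Usp18 and Irf7, neighbours in this order, differed by less than their spread. In tumoroid Ve, Bst2 led at 348 ± 130 CP20M per kb (SD, n = 3), followed by Slfn2 at 80.9 ± 13.3, Isg15 at 71.4 ± 43.1 and Irf7 at 42.5 ± 4.51, and the others were at 7.00 or less. In colonoid Ve, Bst2 was at 248 ± 72.7 CP20M per kb, Isg15 at 133 ± 145, Irf7 at 91.7 ± 48.4 and Slfn2 at 55.1 ± 44.6, and Ifit3 was last at 3.44. The tables were made from different cultures, so these levels are set side by side with no test.

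The interferon ligands had few reads in either table. Of 11 ligand genes, 8 were at 0 in all 19 fibroblast libraries and the highest value was 8 CP20M (Ifnz), which was 3 reads, where 3 reads are worth 4.68 to 7.55 CP20M. In organoids 4 of 11 were at 0 in all 24 libraries and the highest value outside the shallow library was 19 CP20M, where 3 reads are worth 2.68 to 13.7 CP20M. Ifnk, an epithelial type I interferon, was the 1 ligand with more than 3 reads in any library. It exceeded 3 reads in 10 of the 24 organoid libraries, with up to 14 in tumoroid F11 under 5-FU. These floors cover counting error only, and interferon protein was not measured.

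The other lists of pathway genes are to be read against 7.33% of all genes called under R10 in fibroblasts (13.8% with the block). In fibroblasts under R10, 0 of 5 tested receptors and 0 of 11 signal transducers were called, 2 of 7 nucleic acid sensors fell (Ddx58, which encodes RIG-I, by 1.02 and Ifih1, which encodes MDA5, by 0.77) and 2 of 20 other interferon-stimulated genes fell (Ifitm3 by 0.98 and Trim25 by 0.88). With the block 1 transducer fell (Irf1, -0.70), 3 sensors fell (with Tmem173, which encodes STING, at -1.17), and of the other interferon-stimulated genes 10 fell and 1 rose, among them Ifi44 (-1.42), Ifitm3 (-1.06), Xaf1 (-0.89) and, rising, Samhd1 (0.60). The median of that list was -0.55 with the block and -0.81 without, against -0.03 and -0.04 over all genes. Of 12 interferon-gamma and antigen presentation genes, 2 fell (Irgm2, -1.25, and Psmb10, -0.77) and Tap1 rose by 0.65, and with the block 5 fell and 1 rose. Socs3, a feedback inhibitor of cytokine signalling, was lower by 2.15 ± 0.36 (adjusted p = 0.000955), and Slfn9, a relative of Slfn2, by 1.87 ± 0.42 (adjusted p = 0.00656), while the only other Schlafen gene tested was not called. Under R4 no gene of these lists was called and under R4A1 only Socs3 was (-1.40, adjusted p = 0.0296), both without the block.

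In organoids under regorafenib 16.9% of all genes were called, and the counts in the pathway lists, some close to that share, are a description. Among receptors Ifnar2, a chain of the type I interferon receptor, rose by 0.75 ± 0.11 (adjusted p = 8.24e-05), 1 of 6 tested. Of 12 transducers 3 fell, Irf8 (-1.16), Irf1 (-0.92) and Irf2 (-0.84), and of 8 sensors 2 fell, Tmem173 (-1.23) and Mb21d1, which encodes cGAS (-0.74). Of 19 other interferon-stimulated genes, Oasl1 (-2.80 ± 0.40, adjusted p = 3.88e-05) and Epsti1 (-1.25) fell and Lgals3bp (0.71) and Ly6e (0.65) rose, with a list median of -0.20 against -0.11 over all genes. The remaining calls were Psmb10 (-0.96, 1 of 7 interferon-gamma and antigen presentation genes) and Socs3 (-1.38, 1 of 3 negative regulators), and the single Schlafen gene tested, Slfn9, was not called.

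**Figure D5:**
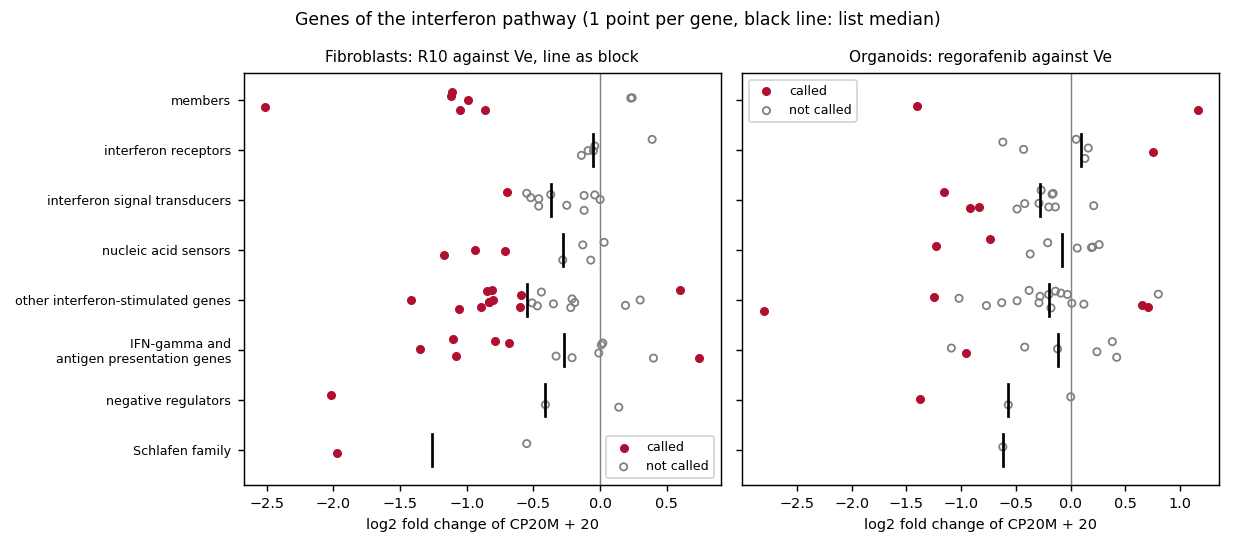
Log2 differences of CP20M + 20 for the genes of each interferon pathway list, 1 point per tested gene, for R10 against Ve in fibroblasts (left, line as a block) and regorafenib against Ve in organoids (right), with filled points for called genes and a black line at the median of each list other than the 9 members. The other interferon-stimulated genes in fibroblasts have their median at -0.55, and in organoids at -0.20 with Oasl1 furthest left at -2.80.

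The members did not all follow the same pattern across libraries, which share lines and treatments. In fibroblasts Isg15, Oasl2, Ifit1 and Usp18 had Pearson correlations of 0.82 to 0.98 with each other on the log2 scale (19 libraries), Slfn2 correlated with Irf7 at 0.73, with Usp18 at 0.69 and with Ifit3 at 0.07, and Bst2 correlated with Slfn2 at 0.03. In organoids (24 libraries) Bst2 had negative correlations with all other members, down to -0.57 with Irf7, and Slfn2 was nearest to Oasl2 (0.73). The organoid correlations include the shallow library and the colonoid M1 Ve library, the highest for both Slfn2 and Oasl2. They also include members with few reads, and no value without these libraries is given. Among all tested genes those most like Slfn2 in fibroblasts were Hgf (0.94), Hyls1 (0.92), Tspan4 (0.90), Txnip (0.90) and Kif20a (0.89), and those most like the mean of the other 8 members were Xaf1 (0.98), Trim30a (0.96), Ifit3b (0.94), Parp9 (0.94) and Gbp2 (0.94). In organoids the genes most like Slfn2 were Prodh, Tgm1 and Ier5l (0.81 each), Krt36 and Gabrp (0.80 each), and those most like the other 8 were Irf9 (0.89), Parp14 (0.76), Sipa1l2 (0.75), Gm26809 (0.74) and Mir7678 (0.73).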

How the data were processed

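The authors trimmed paired-end reads with Trimmomatic 0.36, aligned them to GRCm38 with STAR 2.5.3a, counted genes with HTSeq 0.9.1 and deposited a CP20M signal, counts scaled to 20000000 reads per library and rounded up. The labels and the study's methods name different library kits. At least 98.6% (organoids) and 99.6% (fibroblasts) of values were whole multiples of 1 read, from which depth was recovered. Unused columns of sample values numbered 0. The 9 members and all gene lists were chosen with earlier results of these data known. Differences were fitted with limma 3.58.1 (R 4.3.3) on log2(CP20M + 20) over genes with at least 200 CP20M (10 CPM) in 2 libraries of each table, with Benjamini-Hochberg adjustment over all genes tested, a call being an adjusted p under 0.05 with a log2 difference of at least 0.585 (interactions by adjusted p). Named pathway genes are the called ones with the largest differences in each list. Alternatives were pseudocounts of 2 and 100, filters of 20 and 1 CP20M, median-of-ratios scaling, edgeR 4.0.16 on recovered reads, leaving out each line, and the line as a block. Lines come from the same animal in each treatment, and deviations of same-line libraries correlated at 0.50 on average in organoids (lowest 0.01) and 0.72 in fibroblasts (lowest 0.34), against -0.25 and -0.23 between lines. No 2 libraries of a group held identical values, and all replicate pairs differed beyond counting noise. In 3 tumoroid 5-FU libraries the title says colonoid and the genotype label was followed. The scripts were tested on simulated data. These held no differences between lines, so they could not check p-values for the effect of the line.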

Additional observations from a re-analysis of the deposited data

Results flagged for a closer look

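Among the 36 fibroblast groups of 4 libraries whose extremes were tested with Dixon's criterion, 3 held a library far from the others, where chance gives about 1 in 20. Bst2 under R4A1 was at 1330 CP20M in line M11 against 710 to 798 in the other lines, a gap of 0.858 of the group's range. Rsad2 in line M1 (2) was at 84 CP20M in Ve against 25 to 31 in the other lines (0.898 of the range) and at 87 CP20M under A1 against 25 to 32 (0.887 of the range). No cause of these values was tested.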

How the results depend on the processing

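Of 312 counts of called members (Slfn2 included) over 17 comparisons, 273 stayed within 1.5 times the count in the main analysis and 39 did not. Of 298 values of single members, 256 kept their direction and side of the threshold, 20 lost the call, 22 gained it and 0 reversed. With the line as a replicate block the called members went from 3 to 6 (fibroblast R10), 1 to 3 (R4A1), 0 to 1 (R4A1 against R4), 1 to 2 (R10 against R4) and 0 to 1 (tumoroid R8), with no other change in the number of called members, and with the block and a filter of 20 CP20M, chosen after seeing the data like every other setting below that joins this filter to a second change, they were 6, 3, 1, 2 and 1, with 6 in colonoid R8 and 5 over both genotypes under regorafenib. The filter of 20 CP20M alone gave 5 over both genotypes, edgeR with that filter 5 (and 6 in colonoid R8), and without the shallow library 5. With that filter, the block and no M1 vehicle library they were 5 over both genotypes and 2 in tumoroid R8. In fits without the block, colonoid R4 dropped from 2 to 1 without the shallow library or without the M1 vehicle library, with either filter. The study's stricter threshold of 0.001 gave 0 for colonoid R4 and R8. Without the shallow library tumoroid R8 gave 1 with either filter, and with the block as well 2, and then tumoroid R4, colonoid 5-FU and 5-FU over both genotypes gave 1 each. Leaving out each line in turn gave 0 to 2 for colonoid R4, 0 to 1 for tumoroid R8, 1 to 3 for fibroblast R10, 1 to 2 for R4A1 and 0 to 1 for R10 against R4.

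Counts of all called genes moved more. With the block they went from 113 to 796 (fibroblast R4), 809 to 1519 (R10), 183 to 771 (R4A1), 1 to 158 (R4A1 against R4), 16 to 664 (R10 against R4), 1181 to 1967 (colonoid R4), 428 to 1080 (tumoroid R4), 720 to 1325 (tumoroid R8), 5 to 77, 21 to 287 and 272 to 584 (5-FU in colonoids, tumoroids and both) and 0 to 7 (genotype difference under regorafenib). With edgeR they went from 238 to 374 (tumoroid against colonoid Ve), 428 to 747 (tumoroid R4), 5 to 0, 21 to 85 and 272 to 427 (5-FU, same order) and 1 to 0 (R4A1 against R4). In colonoid R4, 381 genes rose and 800 fell, against 679 and 371 with edgeR, 616 and 607 with median-of-ratios scaling and 640 and 421 without the shallow library. Depth limits the organoid values of Ifit3, Ifit1, Isg15 and Oasl2 in the shallow library, where 3 reads are 117 CP20M.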
